A study of Mus musculus with 18 samples.

Results

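The genes described here encode fibroblast growth factor (FGF) ligands and receptors: the ligands Fgf8 (Entrez gene 14179) and Fgf17 (14171), and the receptors Fgfr1 (14182), Fgfr2 (14183) and Fgfr3 (14184). They were chosen by name, as every probe whose gene symbol in the platform annotation was 1 of these 5. Each gene had 1 probe, so the set holds 5 of the 15063 genes that the array names. No position in the genome is given, because no genome build is named in the sources used here.

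The study compared rostral, middle and caudal neocortex of MF1 mice, an outbred stock, at E13.5, a stage of neurogenesis. No treatment or altered allele is named for any group. Each region was represented by 3 pools, and the tissue came from 4 embryos, with no statement of which embryo gave which pool, so pools may share animals and p-values may measure a spread that is partly technical. Total RNA, extracted with Trizol, was hybridised on 18 arrays that each carried pools of 2 different regions, 1 in Cy3 and 1 in Cy5. Each pair of regions met on 6 arrays, 3 in each dye orientation.

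FGFs are secreted proteins that bind heparan sulphate and activate receptor tyrosine kinases at the cell surface, which signal largely through the Ras and MAP kinase cascade. In the developing forebrain, Fgf8 and Fgf17 are made at the rostral midline, by a signalling centre known as the commissural plate, and act on the neighbouring cortical primordium. Fgfr1, Fgfr2 and Fgfr3 are made by neocortical progenitors, and the transcription factors Etv1, Etv4 and Etv5 and the Sprouty inhibitors are well known targets of the pathway.

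The values are log2 ratios between pools, not levels. Whether a probe was above background, or whether the tissue carried the defining genes of neocortex, could not be checked from ratios. The direction of the ratio is not stated, and Cy5 over Cy3 is taken as likely because Nr2f1, a caudal transcription factor, was then higher in caudal pools (rostral minus caudal -1.02 ± 0.07, SE, limma adjusted p = 0.0138) and Etv1 higher in rostral pools (0.80 ± 0.07, limma adjusted p = 0.0272). With the opposite reading, every direction given here turns over. The median of each array was subtracted from its ratios, and a value for each pool was fitted from its 4 arrays with a dye term. A pool value is therefore a log2 value relative to the mean of the 9 pools and to the median feature. Arrays held 18315 to 20924 values, and all 5 genes had a value on all 18 arrays, none missing or at the ceiling of the scale, as did 12571 of the 18525 features tested. The number of pools limits the precision.

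No difference between regions passed the test for any of the 5 genes, and the largest was 0.18 on the log2 scale, a ratio of 1.13. It belonged to Fgfr2, which was lower in rostral than in caudal pools. Relative to the median feature, the rostral mean was under the middle mean for all 5 genes, and 4 of them, all but Fgfr2, had their highest regional mean in the middle. The shares of all features with these orders were not counted. The 5 genes come from the same arrays and share their errors, so they are not 5 separate observations. Relative to that median, all 5 genes kept their sign in all 3 comparisons under the 4 scalings tried. No centring, median centring and Gapdh centring differ only by a constant per array, which subtracting that median takes out. For these scalings the kept sign was therefore close to fixed in advance. As plain differences, which take in a shift of the median of all features, Fgf17, Fgfr1 and Fgfr2 turned over in rostral against middle and Fgf8, Fgf17, Fgfr1 and Fgfr3 in middle against caudal without centring, and all 5 turned over in rostral against middle with centring on the Gapdh control spots. Since these are bulk samples, fewer cells of a type and less RNA per cell cannot be told apart.

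**Figure D1:**
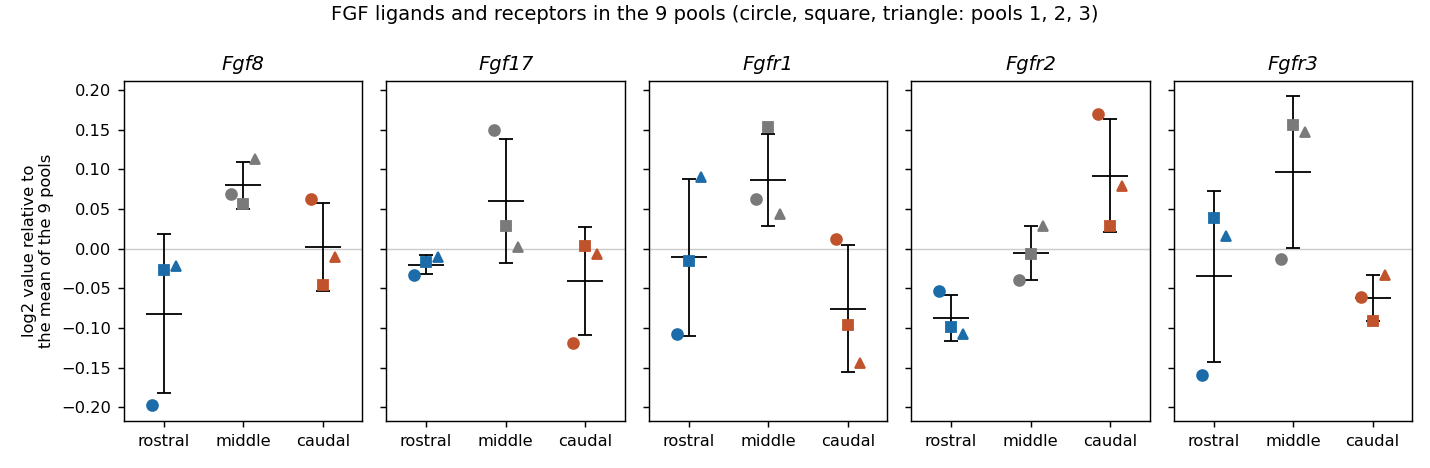
Fitted log2 value of each pool relative to the mean of the 9 pools, for the 5 FGF genes by region, with pool 1 as a circle, pool 2 as a square and pool 3 as a triangle, and bars and whiskers for the mean and SD of 3 pools. The rostral and caudal pools are apart only for Fgfr2, and rostral pool 1 is the lowest rostral pool for 4 of the 5 genes.

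Fgf8 is the ligand best known for patterning the cortex along its rostral to caudal axis. Its pool values were -0.20, -0.03 and -0.02 in rostral pools 1, 2 and 3, 0.07, 0.06 and 0.11 in middle pools, and 0.06, -0.05 and -0.01 in caudal pools. The rostral pools were all below the lowest middle pool, while rostral and caudal pools overlapped. The regional means were -0.08 ± 0.10 (SD, n = 3) for rostral, 0.08 ± 0.03 for middle and 0.0021 ± 0.06 for caudal. Rostral minus middle was -0.16 ± 0.06 (SE), with a 95% interval of -0.31 to -0.01 and an unadjusted limma p of 0.0389, which after Benjamini-Hochberg adjustment over the 18525 features was 0.931. Without rostral pool 1 it was -0.10, with an unadjusted limma p of 0.15. Rostral pool 1 was the lowest of the 9 pools for this gene, and the other rostral pools lay near the caudal ones. Rostral minus caudal was -0.08 ± 0.06, with an interval of -0.24 to 0.07 (limma adjusted p = 0.882). Middle minus caudal was 0.08 ± 0.06 (interval -0.07 to 0.23, limma adjusted p = 0.995).

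Fgf17 is a close relative of Fgf8 made in the same region that patterns frontal cortex. Its pool values were -0.03, -0.02 and -0.01 in rostral pools, 0.15, 0.03 and 0.0026 in middle pools, and -0.12, 0.0038 and -0.01 in caudal pools. The rostral pools were nearly alike, all below the middle pools, and middle pool 1 and caudal pool 1 lay farthest from 0, on opposite sides. The means were -0.02 ± 0.01 (SD, n = 3), 0.06 ± 0.08 and -0.04 ± 0.07 in rostral, middle and caudal pools. Rostral minus caudal was 0.02 ± 0.06 (SE, interval -0.12 to 0.16, limma adjusted p = 0.973), and its sign turned without caudal pool 1 (-0.02). Rostral minus middle was -0.08 ± 0.06 (interval -0.22 to 0.06) and middle minus caudal 0.10 ± 0.06 (interval -0.04 to 0.24), with limma adjusted p of 0.999 and 0.995.

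Fgfr1 is a receptor without which the olfactory bulbs do not form. Its pool values were -0.11, -0.02 and 0.09 in rostral pools, 0.06, 0.15 and 0.04 in middle pools, and 0.01, -0.10 and -0.14 in caudal pools. Rostral pools overlapped both other regions, whereas all middle pools lay above all caudal pools. The means were -0.01 ± 0.10 (SD, n = 3), 0.09 ± 0.06 and -0.08 ± 0.08. Middle minus caudal was 0.16 ± 0.07 (SE, interval -0.01 to 0.33), with an unadjusted limma p of 0.0569 and an adjusted p of 0.995. Rostral minus caudal was 0.06 ± 0.07 (interval -0.10 to 0.23, limma adjusted p = 0.925), and rostral minus middle -0.10 ± 0.07 (interval -0.27 to 0.07, limma adjusted p = 0.999).

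Fgfr2 encodes a receptor whose splice forms in neural tissue bind FGF8 family ligands. Its pool values were -0.05, -0.10 and -0.11 in rostral pools, -0.04, -0.01 and 0.03 in middle pools, and 0.17, 0.03 and 0.08 in caudal pools. All rostral pools lay below all middle and all caudal pools, and middle and caudal pools met at 0.03. The means were -0.09 ± 0.03 (SD, n = 3), -0.01 ± 0.03 and 0.09 ± 0.07. Rostral minus caudal was -0.18 ± 0.05 (SE, interval -0.30 to -0.05), with an unadjusted limma p of 0.0116, at rank 567 of the features tested, and an adjusted p of 0.379. It lay between -0.21 and -0.14 when each pool was left out in turn, so its direction did not rest on 1 pool. The middle pools lay between the ends. Rostral minus middle was -0.08 ± 0.05 (interval -0.21 to 0.04) and middle minus caudal -0.10 ± 0.05 (interval -0.22 to 0.03), with limma adjusted p of 0.999 and 0.995.

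Fgfr3 encodes a receptor known for a high caudal and low rostral gradient in the cortical primordium. Its pool values were -0.16, 0.04 and 0.02 in rostral pools, -0.01, 0.16 and 0.15 in middle pools, and -0.06, -0.09 and -0.03 in caudal pools. Middle pools lay above caudal pools, with middle pool 1 close to the caudal range, and rostral pools overlapped both regions. The means were -0.03 ± 0.11 (SD, n = 3), 0.10 ± 0.10 and -0.06 ± 0.03. Rostral minus caudal was 0.03 ± 0.07 (SE, interval -0.15 to 0.20, limma adjusted p = 0.972), and its sign turned without rostral pool 2, rostral pool 3 or caudal pool 2 (range -0.01 to 0.08 over each pool left out). Rostral minus middle was -0.13 ± 0.07 (interval -0.31 to 0.04, limma adjusted p = 0.977) and middle minus caudal 0.16 ± 0.07 (interval -0.02 to 0.33, limma adjusted p = 0.995).

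**Figure D2:**
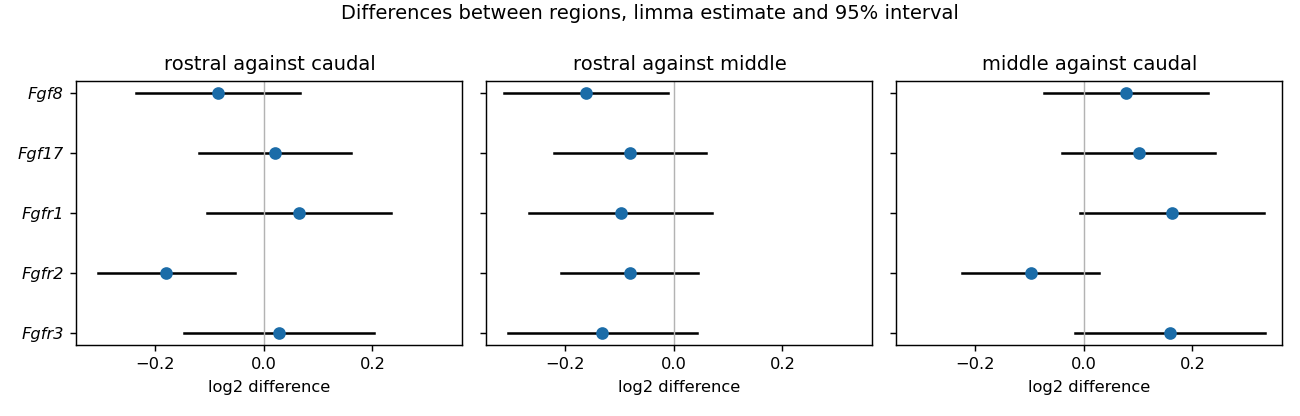
Difference in log2 value between regions for each FGF gene, as the limma estimate with its 95% interval, in rostral against caudal, rostral against middle and middle against caudal. The interval leaves out 0 for Fgfr2 in rostral against caudal (-0.30 to -0.05) and for Fgf8 in rostral against middle (-0.31 to -0.01), and neither passed after adjustment.

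The counts of genes are given beside those of all features. In rostral against caudal, 0 of the 5 genes passed an adjusted limma p of 0.05, against 0.0648% of all features (12), and 1 of 5 had an unadjusted p under 0.05, against 7.9% (1464). Pools of the ends did not overlap for 1 of 5 genes and for 12.1% of all features. In rostral against middle 0 features passed (0%), 1 of 5 genes and 5.25% of all features (973) had an unadjusted limma p under 0.05, and pools did not overlap for 3 of 5 genes (Fgf8, Fgf17 and Fgfr2) and 12.8% of all features. In middle against caudal 0 features passed (0%), 0 of 5 genes and 4.86% of all features (901) had an unadjusted limma p under 0.05, and pools did not overlap for 3 of 5 genes (Fgfr1, Fgfr2 and Fgfr3) and 10.6% of all features. With 5 genes these shares move by 20% for each gene. The 3 comparisons share pools, so their counts are not separate evidence.

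The test for any difference among the regions passed for 0 of the 5 genes and for 0.0108% of all features (2). Its unadjusted limma p was under 0.05 for 1 gene, Fgfr2 (0.0335, adjusted 0.665), and for 6.71% of all features. Middle against the mean of both ends asks whether the middle pools depart from a straight gradient. It was chosen with earlier results of these data known, and 4 of the genes had their highest mean there. Its p-values are therefore no separate support for that order. The comparison gave 0.12 ± 0.06 (SE) for Fgf8, 0.09 ± 0.05 for Fgf17 and 0.13 ± 0.06 for Fgfr1. For Fgfr2 it gave -0.01 ± 0.05 and for Fgfr3 0.14 ± 0.06. All had a limma adjusted p of 1, with 0 features passing (0%), and none had an unadjusted p under 0.05, against 4.06% of all features. As plain differences, Fgf8, Fgf17 and Fgfr1 turned over in that comparison without centring and Fgf17 with Gapdh centring, where the median of all features moved too. Relative to that median the values without centring were -0.165 for Fgf8, -0.084 for Fgf17 and -0.101 for Fgfr1 in rostral against middle, against -0.164, -0.082 and -0.10 with median centring. These are alike by design, because the settings differ only by a constant per array.

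The arrays that joined 2 regions directly give the ratios before any fit of pool values. On the 6 arrays of rostral and caudal pools, the centred Fgfr2 ratio, turned as rostral over caudal, had its lowest value at -0.385, its median at -0.14 and its highest at 0.05, with 5 of 6 below 0. With the dye term of the probe removed, all 6 were below 0. Fgf8 on the 6 arrays of rostral and middle pools ran from -0.356 through a median of -0.176 to -0.015, with 6 of 6 below 0. Before centring, its rostral over middle ratio was above 0 where rostral was in Cy5 (0.216, 0.457 and 0.093). It was below 0 where rostral was in Cy3. These arrays are among those from which the pool values were fitted. Fgf17 on the same arrays ran from -0.286 through -0.141 to 0.047, with 4 of 6 below 0, or 6 of 6 with the dye term removed. Fgfr2 on the 6 arrays of middle and caudal pools ran from -0.187 through -0.161 to -0.007, with 6 of 6 below 0, or 5 of 6 with the dye term removed. Fgfr1 on the same arrays had 6 of 6 above 0, the opposite sign, with a mean of 0.17. Before centring, the middle over caudal ratios of Fgfr1 were 0.441, -0.028 and 0.361 where middle was in Cy5. Those of Fgfr2 were 0.386, -0.223 and 0.021. Where middle was in Cy3, the ratios of both genes were below 0. In middle against caudal, the 6 of 6 of Fgfr2 and of Fgfr1 therefore hold for centred ratios only.

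Fgfr3 was the least steady of the 5 on single arrays. Its rostral over middle ratios ran from -0.968 to 0.204 and its middle over caudal ratios from -0.598 to 0.516. For this gene the direct arrays and the pool values differed in size: the mean of the direct arrays was 0.14 in rostral against caudal, -0.245 in rostral against middle and 0.045 in middle against caudal, where the pool values gave 0.03, -0.13 and 0.16. The arrays that joined the third region bear on the pool values and not on the direct means. The dye term was -0.278 for Fgfr3, against -0.119 for Fgf17, -0.061 for Fgfr2, -0.03 for Fgfr1 and 0.028 for Fgf8. The SD of array residuals was 0.297 for Fgfr3, where 53.9% of features had a smaller one, and 0.063 to 0.105 for the other 4 genes, against a median of 0.256 over all features. The SD between pools of a region lay between 0.048 for Fgfr2 and 0.085 for Fgfr3, against a median of 0.151. The half-width of the 95% interval of a difference was 0.126 for Fgfr2 to 0.175 for Fgfr3. A difference smaller than the half-width of its gene could not reach an unadjusted limma p under 0.05. Passing after adjustment took more: Fgfr2 at -0.18 in rostral against caudal had a limma adjusted p of 0.379.

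**Figure D3:**
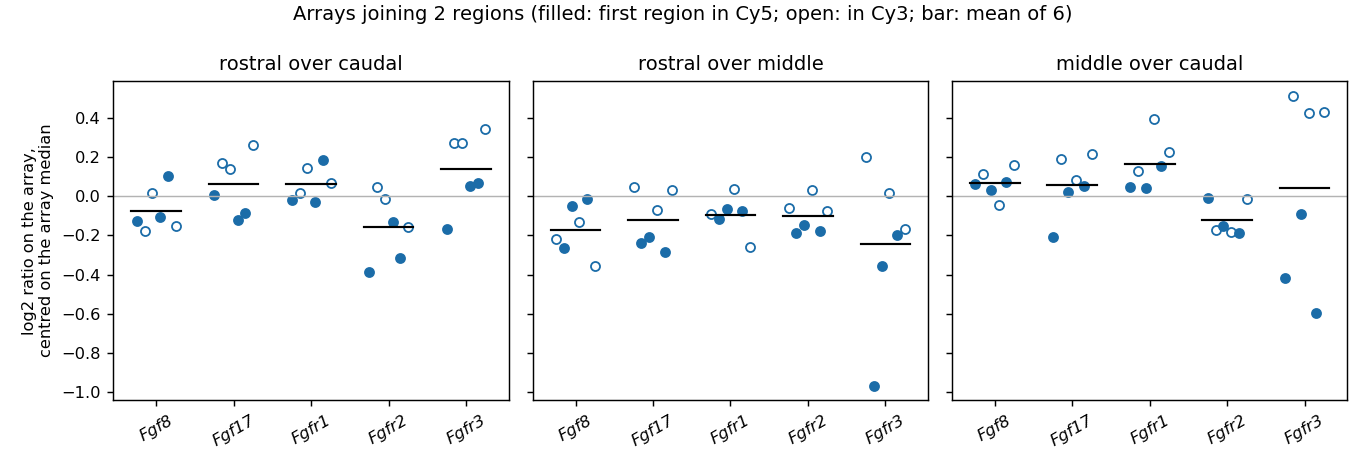
Centred log2 ratio on each array that joined the 2 regions directly, turned so that the first-named region is the numerator, with filled points where that region was in Cy5, open points where it was in Cy3, and a bar at the mean of 6 arrays. Filled and open points are apart for Fgfr3, whose dye term was -0.278, and for Fgf17, whose dye term was -0.119. They are mixed for Fgf8, whose dye term was 0.028.

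Differences between 2 genes in the same pool do not depend on how arrays are centred. Fgfr2 minus Fgfr1 ran from -0.198 to 0.054 in rostral pools and from 0.125 to 0.222 in caudal pools, which do not overlap, a change of -0.24. Fgfr2 minus Fgfr3 changed by -0.21 between the same regions, and both differences changed by -0.26 in middle against caudal. These 4 gave p = 0.1 in a two-sided exact permutation test of 3 pools against 3, the smallest it can give (adjusted 0.3 over 12 tests), so p under 0.05 was out of reach. Fgfr1 minus Fgfr3 changed by 0.04 or less in every comparison (exact permutation p of 0.6 to 0.7). Fgf8 minus Fgf17 changed by -0.105 in rostral against caudal (exact permutation p = 0.4). The pairs were chosen after the values were seen.

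Over the 9 pools, Fgfr1 and Fgfr3 had a Pearson correlation of 0.728, Fgf8 and Fgfr3 of 0.725, and Fgf8 and Fgfr1 of 0.61. Fgfr2 gave 0.374 with Fgf8 and values from -0.445 to -0.121 with the other 3 genes. All values come from the same 18 arrays, so errors of an array are shared by the genes. Among 10384 features of 1 gene measured on all arrays, the genes with the most similar pool values were Nlgn3 (0.967), Stxbp2 and Vkorc1l1 for Fgf8, Tubb3 (0.961), Eef2 and Clk3 for Fgf17, Nr2e1 (0.957), Gtf2i and Ss18 for Fgfr1, Brctd1 (0.969), Krtap15 and Arl1 for Fgfr2, and Gal (0.979), Nr1i2 and Pcnt for Fgfr3, by their names in the platform annotation. These are the highest of many correlations over only 9 points.

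The other genes of the pathway were taken from 6 lists holding 87 genes, of which 67 were tested. In rostral against caudal 1 passed, Etv1, higher in rostral pools, a direction that was itself used to read the ratio. Of the 67, 11 had an unadjusted limma p under 0.05 (5 higher and 6 lower in rostral pools). That is 16.4% against 7.9% of all features. The lists were chosen with earlier results of these data known, so this is no test of the pathway. The 11 include Etv1, and also Fgf1 and Etv5, whose second probes were at 0.02 and -0.06. The median difference of the 67 was -0.03, against 0.002 over all features. In rostral against middle and in middle against caudal 0 of 67 passed, and 6 had an unadjusted limma p under 0.05 in each (8.96%), against 5.25% and 4.86% of all features.

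Among ligands, 0 of 12 other secreted FGFs passed in rostral against caudal, 6 above and 6 below 0. Fgf1 was at -0.32 ± 0.07 (SE, limma adjusted p = 0.198), but a second probe for it gave 0.02 ± 0.07. Fgf15, which opposes Fgf8 in cortical patterning, was at 0.02 ± 0.05, and Fgf18 at 0.42 ± 0.27, Fgf9 at -0.47 ± 0.43, Fgf10 at -0.28 ± 0.17 and Fgf2, a mitogen of cortical progenitors, at -0.07 ± 0.27, all with intervals that include 0. Of the 4 intracellular FGFs, which bind sodium channels and not FGF receptors, 0 passed, with Fgf14 at -0.28 ± 0.04 (limma adjusted p = 0.125) and Fgf13 at 0.11 ± 0.16.

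Receptor partners and the fourth receptor also had 0 of 8 passing in rostral against caudal. Fgfr4 was at -0.12 ± 0.24 (SE) and the decoy receptor Fgfrl1, measured on 14 arrays, at -0.11 ± 0.22. Fgfbp3, a carrier that releases FGFs from the matrix, was at 0.68 ± 0.10 in rostral against caudal and 0.48 in rostral against middle (limma adjusted p = 0.0773 and 0.587). Flrt3, a membrane protein that binds FGF receptors, was at -0.47 ± 0.10 (limma adjusted p = 0.191). Of 18 genes of heparan sulphate synthesis and proteoglycans 0 passed, with Hs2st1, a sulphotransferase, at -0.31 ± 0.06 (limma adjusted p = 0.169), and of 15 signal transducers 0 passed, with Sos2 at -0.90 ± 0.32 (limma adjusted p = 0.506).

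Targets and feedback genes held the 1 gene that passed. Etv1 was 0.80 higher in rostral than in caudal pools and 0.59 higher than in middle pools (limma adjusted p = 0.0272 and 0.28), the latter not past the threshold. The direction of Etv1 was used to read the ratio, so only the size of its difference is a result. Without centring 0 features passed in rostral against caudal, and 0 to 4 passed when each of the 9 pools was left out in turn. Spry2, an inhibitor of receptor tyrosine kinase signalling, was at 0.46 ± 0.06 (SE, limma adjusted p = 0.0619). Etv5 was at 0.31 ± 0.09 (limma adjusted p = 0.35), with a second probe at -0.06 ± 0.08. Etv4 was at 0.03 ± 0.06, Spry4 at -0.17 ± 0.51 and Dusp6, a phosphatase of MAP kinases, at -0.62 ± 0.44. The list was split, with 5 genes above and 5 below 0, and a median of 0.00.

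Among 13 transcription factors and signalling proteins that control the FGF source or respond along the same axis, Nr2f1 was the 1 that passed. It was lower in rostral pools, a direction that was itself used to read the ratio. Emx2, which restrains Fgf8 in the rostral forebrain, was at -0.25 ± 0.08 (SE, limma adjusted p = 0.427). Of the 13, 3 lay above and 10 below 0 in rostral against caudal, with a median of -0.07.

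**Figure D4:**
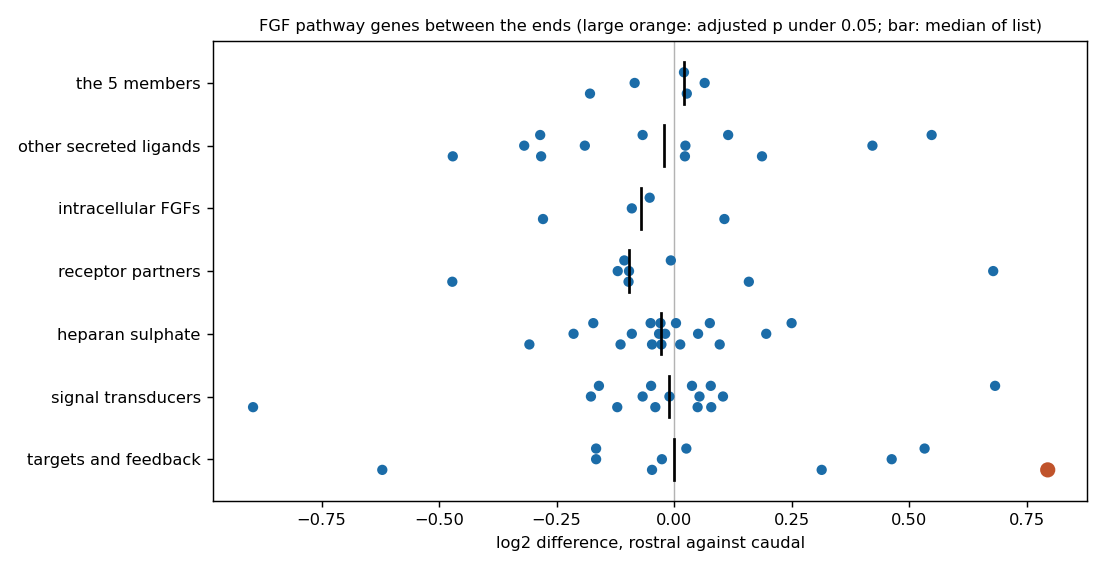
Log2 difference in rostral against caudal for each tested gene of the FGF pathway by list, with a bar at the median of the list and a large orange point for a limma adjusted p under 0.05. The 5 members lie between -0.18 and 0.06, and Etv1, at 0.80, is the 1 orange point.

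Some other measures moved with these patterns and some did not, and their part in the results was not tested. The median of the Gapdh control spots was -0.07, -0.04 and -0.15 in rostral pools and 0.08, 0.09 and 0.07 in middle pools, so the spots too were lower in all rostral than in all middle pools. In caudal pools that median was -0.14, 0.03 and 0.14, a spread that overlaps both other regions. Of meninges and mesenchyme genes, 11 of 11 tested had a negative rostral minus caudal difference (median -0.17), 0 of them past the threshold. In rostral against middle 10 of 11 were negative (median -0.06). The median of that list in a pool ran from -0.14 to 0.00 in rostral pools, from -0.04 to 0.04 in middle pools and from 0.06 to 0.13 in caudal pools. Of blood and microglia genes, 7 of 7 tested were negative in rostral against middle (median -0.18) and 6 of 7 in rostral against caudal (median -0.17). Of the endothelial genes 8 of 10 were negative in rostral against middle (median -0.04) and 8 of 10 in rostral against caudal (median -0.07). Genes of choroid plexus and cortical hem went the other way in rostral against middle, with 9 of 11 above 0 (median 0.135). In middle against caudal 9 of 11 were below 0 (median -0.21), and in rostral against caudal 7 of 11 were (median -0.05). Genes of septum and ventral forebrain had 7 of 12 above 0 in rostral against caudal (median 0.015) and 6 of 12 in rostral against middle (median -0.022). Neocortex genes had 7 of 14 and 6 of 14 above 0 (medians 0.02 and -0.047). Surface epithelium genes had 4 of 6 and 2 of 6 above 0 (medians 0.065 and -0.082). Of all these lists 0 genes passed. Whether the defining markers of those cells are near 0 in level cannot be read from ratios.

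Relative to the median of all features, Fgfr2 in rostral against caudal was -0.18 with median centring, -0.18 without centring and -0.18 with Gapdh centring. Because these scalings differ only by a constant per array, such values are alike by design. The median itself moved under those scalings, by -0.07 without centring and 0.10 with Gapdh centring in rostral against caudal, and by 0.10 and 0.17 in rostral against middle. With that shift left in, Fgfr2 was -0.25 without centring and -0.08 with Gapdh centring. Fgf8 in rostral against middle was likewise -0.164 with median centring, -0.165 without centring and -0.164 with Gapdh centring relative to the median of all features. With the shift left in it was -0.06 without centring and 0.005 with Gapdh centring.

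**Figure D5:**
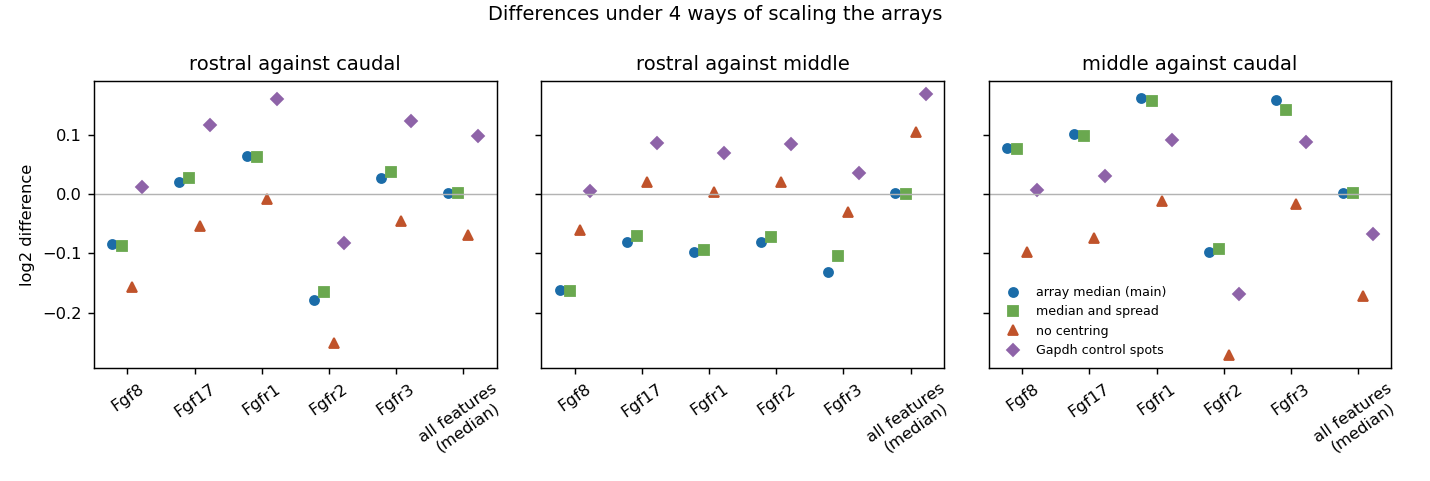
Log2 difference of each FGF gene and the median of all features under 4 scalings of the arrays, for the 3 comparisons of regions. Points of a gene move together with the median of all features, and Fgfr2 stays below 0 in rostral against caudal under all 4 scalings, from -0.25 to -0.08.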

How the data were processed

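The authors deposited a table of log2 ratios, with 21998 features and a column for each array. The base was read from the ceiling of the values (16.61). The sources used here do not name the scanner, background correction, normalization or ratio direction. The 232 Gapdh control spots were left out. Capped ratios (1477) were treated as missing, which was decided with the data in view. Each array was centred on its median (array medians -0.09 to 0.61), and values of 9 pools were fitted by least squares with a dye term for features with values on at least 12 arrays and 2 per pool. Regions were compared with limma 3.58.1 (lmFit, eBayes; R 4.3.3) on the pool values, with Benjamini-Hochberg adjustment over 18525 features. Figures used matplotlib 3.10.9. The scripts were tested on simulated data.

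The members, lists and tests were chosen with earlier results of these data known. Genes named were the members, the 3 genes most like each in pool pattern, each pathway gene that passed, a fixed set of pathway genes where measured, and the gene with the lowest F test p of each list. Of the fixed set, Sp8 is not named on the array and Spry1 was not tested. Alternatives tried were other centring and scaling, filters, the dye term, capped ratios kept, arrays as independent, a replicate block, and each pool or array left out.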

Additional observations from a re-analysis of the deposited data

How the results depend on the processing

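Of 735 values of the 5 genes under alternatives, 701 kept their direction and side of the threshold, 31 reversed, 3 became past the threshold and 0 lost it. None of the 5 genes passed in the main setting, so none could lose the threshold. The filters, the dye term, the replicate block and arrays as independent leave the estimates of these genes almost unchanged by design. The 701 therefore overstate how steady the values are. Without centring, Fgf8 was -0.097 in middle against caudal and -0.018 in middle against the ends. Fgf17 was -0.053 in rostral against caudal, 0.021 in rostral against middle, -0.074 in middle against caudal and -0.047 in middle against the ends, and Fgfr1 was -0.008, 0.003, -0.012 and -0.007 in the same order. Fgfr2 was 0.020 in rostral against middle, and Fgfr3 -0.046 in rostral against caudal and -0.016 in middle against caudal. With Gapdh centring, Fgf8 was 0.012 in rostral against caudal and 0.005 in rostral against middle, Fgf17 0.086 in rostral against middle and -0.028 in middle against the ends, and rostral against middle was 0.069 for Fgfr1, 0.085 for Fgfr2 and 0.035 for Fgfr3. The median of all features moved with both settings, and relative to it all 5 genes kept their sign in all 3 comparisons of regions. That was close to fixed in advance, because both settings differ from the main setting only by a constant per array. With 1 pool left out, rostral against caudal ran from -0.023 to 0.041 for Fgf17 and from -0.014 to 0.077 for Fgfr3, and middle against the ends from -0.029 to 0.012 for Fgfr2. With 1 array left out these were -0.074 to 0.07 for Fgfr3 and -0.023 to 0.018 for Fgfr2.

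With arrays taken as independent, which makes p too small because pools recur, limma adjusted p was 0.025 for Fgf8 in rostral against middle, 0.0271 for Fgfr1 in middle against caudal and 0.00611 for Fgfr2 in rostral against caudal. That setting passed 1327 features in rostral against caudal, 706 in rostral against middle, 498 in middle against caudal, 291 in middle against the ends and 1486 in the F test. Rostral against caudal passed 12 features in the main setting, 0 without centring, 46 with features on all 18 arrays, 7 with no filter, 0 to 4 with 1 pool left out and 2 to 17 with 1 array left out. The F test passed 2 in the main setting, 20 with features on all 18 arrays, 0 with spread scaling, capped ratios kept, Gapdh centring, no centring or no filter, 0 to 1 with 1 pool left out and 0 to 5 with 1 array left out. The cause was not tested.

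Deviations of same-numbered pools from different regions correlated at -0.432 to -0.057 (9 pairs) and others at -0.288 to 0.474 (18 pairs). Same-numbered pools never met on an array, while each of the other pairs shared an array and its errors. The correlations therefore cannot show whether the pool numbers pair the pools. With the pool number as a replicate block, 0 features passed in rostral against caudal and 0 in the F test, and Fgfr2 in rostral against caudal had an unadjusted p of 0.0319 (adjusted 0.771). Each gene had 1 probe, so averaging probes gave no other value. With ratios only, signal over background and other background corrections could not be examined.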
